A study of Mus musculus with 2 samples.

Results

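Hepatocyte-rule cells of mouse liver were divided here by the strength of a stain labelled Ttr, the symbol of transthyretin, and their transcripts were compared between strongly and weakly stained cells. A segmented cell was taken as a hepatocyte when it held at least 10 gene counts, a volume of at least 50 in the files' units and at least 5 counts summed over F2, Apoh, Fga, Fgb, Serpina1a, Igfbp2 and Igfbp4. The members were thus chosen by measured counts, and the compared bins by the measured stain. The rule kept 4980 of 26037 segmented cells in section 1 and 8814 of 85929 in section 2, or 13794 of 111966 in all. These were 54.1% of the cells that met the count and volume limits in either section, and the sections shared 0 cell identifiers. Within each section the cells were ranked by stain signal per volume and cut into 3 equal bins (lowest, middle and highest) of 1660 cells in section 1 and 2938 in section 2.

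The data are spatial transcript counts from MERFISH, an imaging method that decodes single RNA molecules of a chosen gene panel in a tissue slice, with 500 genes and 50 blank barcodes that name no gene. There is 1 group, liver, with 2 sections numbered as replicates. The labels of both sections carry the element 2d, which they do not explain. They otherwise state no genotype, strain, age, sex or treatment. They leave unsaid if the sections are of different animals, and describe them in a way that the text on the series as a whole does not match. P-values therefore measure only how the differences between bins vary between these 2 sections, a spread that may be technical. The Ttr channel is an image signal outside the 500-gene panel, and neither the labels nor the headers say whether it marks RNA or protein.

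Transthyretin carries thyroid hormone and, with retinol-binding protein, vitamin A in the blood, and hepatocytes are its main source in the body outside the brain. Hepatocytes make most plasma proteins, among them the clotting factors, and they divide other tasks along the lobule: cells near the portal vein run the urea cycle and glucose synthesis, whereas cells near the central vein make glutamine and much of the cytochrome P450 machinery. Blood enters at the portal side and drains at the central vein, and sinusoidal endothelial cells, Kupffer cells and stellate cells line the plates of hepatocytes in between.

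The stain behaved differently in the 2 sections. In section 1 the signal per volume, in units of 1000, ran from 135 to 3535, with medians of 262, 550 and 1075 in the lowest, middle and highest bin. In section 2 it ran from 122 to 490, with medians of 152, 177 and 217. The bins met at 387 and 754 in section 1 and at 164 and 193 in section 2, and the median of the highest bin of section 2 lay below the lower cut of section 1. The section therefore entered every fit as a block, and each section is also given alone.

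**Figure D1:**
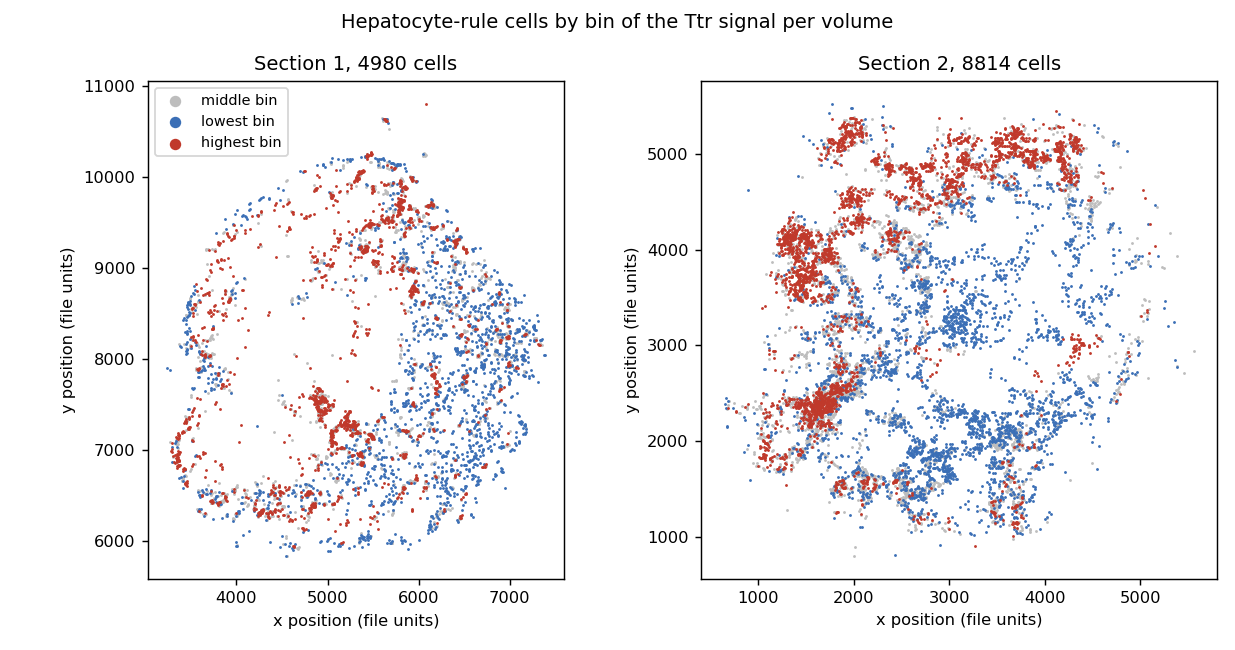
Position of every hepatocyte-rule cell in each section (x and y in the files' units), coloured by bin of the Ttr signal per volume: blue lowest, grey middle, red highest. Strongly and weakly stained cells lay in separate patches, with 4980 cells drawn in section 1 and 8814 in section 2.

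Strong and weak cells lay in patches. Among 126 tiles of 250 by 250 units with at least 15 such cells in section 1, the median signal ran from 203 to 1409, and 11 tiles held no cell of the highest bin. Section 2 had 163 such tiles, with medians from 137 to 362 and 44 tiles without a cell of the highest bin. Differences between tiles made up 36.4% of the variance of the signal in section 1 and 59.9% in section 2. A cell's signal followed the mean of its 5 nearest hepatocyte-rule cells, with a Spearman rho of 0.767 and 0.826. These correlations are descriptions across cells of 1 library each.

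The stain was higher in hepatocyte-rule cells than in the cells of each other marker class large enough to describe, by more in section 1 than in section 2. Against all segmented cells it was not higher in section 1, where their median was 0.999 times that of the hepatocyte-rule cells, and this ratio was 0.829 in section 2. The other classes were cells below 5 rule counts with at least 3 counts of exactly 1 other marker list. In section 1 the median signal relative to that of the hepatocyte-rule cells was 0.372 in 687 cells with erythroid markers, 0.327 in 41 with macrophage markers, 0.406 in 90 with monocyte and neutrophil markers and 0.331 in 41 with endothelial markers. It was 0.715 in 257 cells with mesenchymal markers. In section 2 the ratio was 0.976 for 286 cells with erythroid markers, 0.872 for 48 with macrophage markers, 0.883 for 24 with endothelial markers and 0.782 for 312 with mesenchymal markers. The T and NK and the cholangiocyte classes held 13 and 7 cells in section 1, and 7 and 1 in section 2, too few for a quartile. The 877 cells of section 1 with 0 rule counts had a median of 276, against 566 in the 634 cells at exactly 5 rule counts and 557 in 711 at 4, just outside the rule. In section 2 these medians were 154 in 819 cells, 169 in 1956 and 168 in 2100. The signal did not follow the number of rule counts further in section 1, with a median of 542 at 20 or more, but reached 211 there in section 2.

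**Figure D2:**
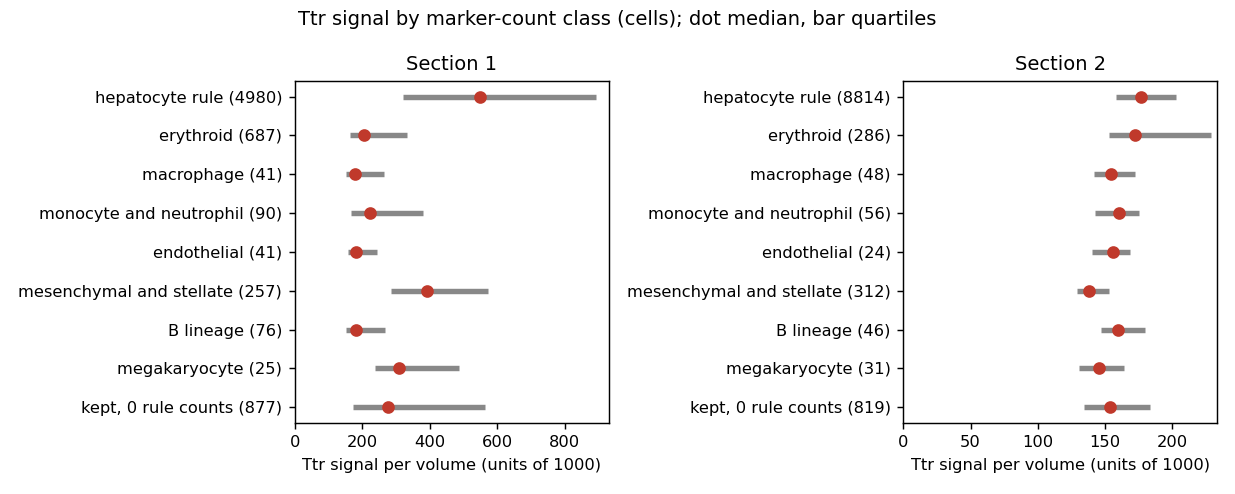
Ttr signal per volume (units of 1000, axis from 0) for the hepatocyte-rule cells and for cells with counts of another marker list, by section; dots are medians, bars the quartiles, and cell numbers stand in brackets. The hepatocyte-rule median of 550 in section 1 lay far above the erythroid median of 204, whereas in section 2 the medians were 177 and 173.

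Other measures moved with the stain. Fits with bins cut within strata of some of them are given below, and whether any of them causes the results was not tested. Signal in the GFP channel followed it with a rho of 0.883 in section 1 and 0.511 in section 2. Smaller cells had the stronger signal per volume, with a rho of -0.345 and -0.288 and median volumes of 1480 against 972 and 1508 against 1160 in the lowest and highest bin. The depth moved in opposite directions. Section 1 had a median of 51.5, 48 and 35 gene counts per cell from the lowest to the highest bin, and section 2 had 16, 19 and 24. The summed gene counts were 109048, 110368 and 78508 in section 1 and 51672, 64411 and 79046 in section 2. Blank barcodes made up 0.258%, 0.455% and 0.959% of the gene and blank counts together in section 1 and 0.193%, 0.209% and 0.251% in section 2. The DNA stain had a rho of 0.407 and 0.128 with the Ttr signal, and the polyA stain one of 0.527 and 0.00170.

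The 7 genes that chose the cells are given without a test. Hepatocyte markers outside the rule (Hp, Hnf4a, Gjb1 and Cebpa) summed to 863 and 1216 counts per 10000 in the lowest and highest bin of section 1 and to 1772 and 1973 in section 2, so the cells of every bin carried them. The share of the 7 rule genes in all gene counts was 21.2%, 25.6% and 30.0% from the lowest to the highest bin in section 1, and 41.0%, 37.6% and 35.1% in section 2. F2, which encodes prothrombin, stood at 538, 704 and 804 counts per 10000 in section 1 and at 712, 612 and 613 in section 2. The sections thus ran in opposite directions for this gene. Fga, the fibrinogen alpha chain, ran the same way in both, at 243, 257 and 293 in section 1 and 110, 130 and 155 in section 2. Apoh, a phospholipid-binding plasma protein, stood at 105 against 148 in the lowest and highest bin of section 1 and 155 against 176 in section 2. Igfbp2, which binds insulin-like growth factors, stood at 428 against 500 in section 1 and 1977 against 1495 in section 2. Igfbp4 of the same family ran from 364 to 526 and from 716 to 621. Fgb, the fibrinogen beta chain, stood at 436 and 728 in the lowest and highest bin of section 1 and at 406 and 427 in section 2. Serpina1a, an alpha-1-antitrypsin gene, had at most 2.84 counts per 10000 in section 1 and 24.6 to 26.4 in section 2.

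Between the highest and the lowest bin, 5 of 10 periportal genes were higher in strongly stained cells, and some genes of blood and endothelial cells were lower. Cyp2f2, a cytochrome P450 of periportal hepatocytes, led the genes with substantial counts. The urea-cycle genes Ass1, Arg1 and Asl, which make and split argininosuccinate and arginine, were also higher. Csf1r, the macrophage growth factor receptor, Itgal, a leukocyte integrin, and Cd24a and Epor, which are abundant in erythroid precursors, were lower. Epor was lower in section 1 only, and Cd24a and Epor were the 2 genes called of 7 on the erythroid list. The test was edgeR's quasi-likelihood fit of the 6 sums (section by bin) with section as a block, Benjamini-Hochberg adjustment over the 369 genes with at least 50 counts outside the rule, and a threshold of 0.05. It called 58 of them (15.7%), of which 32 (8.67%) were higher and 26 (7.05%) lower, and the unadjusted p lay under 0.05 for 120. The median log2 change over all 369 was -0.06. Of the 58, 54 ran the same way in both sections, and the middle bin lay between the others for 58 in section 1 and 38 in section 2. The same sums gave the calls, and the test favours genes whose sections agree, so these counts are no replication.

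The fit sets sums on a common scale by trimmed means (TMM), and this choice matters here. Relative to plain library totals it raised every highest-over-lowest log2 value by 0.56 in section 1 and lowered it by 0.01 in section 2. By totals the fit called 14 genes higher and 48 lower, with a median of -0.37. Levels below are counts per 10000 on the TMM scale, and a ratio in 1 section has an exact 95% interval from the conditional binomial, which covers counting error only.

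Cyp2f2 had 120, 291 and 337 counts in the lowest, middle and highest bin of section 1, or 7.39, 20.5 and 42.5 per 10000. In section 2 it had 49, 84 and 154 counts, or 12.1, 15.8 and 24.6 per 10000. Each step from lowest to highest was upward in both sections. The highest bin held 5.75 times the level of the lowest in section 1 (interval 4.66 to 7.15) and 2.04 times in section 2 (1.47 to 2.87). The fitted log2 change was 1.84 (SE 0.31, adjusted p = 0.0014), and by totals it was 1.52 (adjusted p = 0.00093). Over 23 other settings it was positive in 23 and called in 18, with adjusted p between 5.1e-15 and 0.75.

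Ass1, argininosuccinate synthetase, stood at 17.7, 24.0 and 36.0 per 10000 in section 1 and at 53.4, 65.1 and 82.7 in section 2, again rising at each step. Its log2 change was 0.83 (SE 0.23, adjusted p = 0.030). Arg1, arginase of the last step of the cycle, stood at 4.31, 7.67 and 18.4 in section 1 and 22.9, 22.7 and 27.1 in section 2. Most of its difference lay in section 1, where the ratio was 4.27 (3.19 to 5.77), against 1.19 (0.916 to 1.54) in section 2. Its log2 change was 1.16 (SE 0.33, adjusted p = 0.031). Asl, argininosuccinate lyase, stood at 4.92, 8.09 and 16.3 in section 1 and 25.1, 22.5 and 31.4 in section 2. Its ratios were 3.30 (2.48 to 4.42) and 1.25 (0.982 to 1.61), and its log2 change was 0.998 (SE 0.30, adjusted p = 0.033). By totals the calls of these urea-cycle genes were lost, with adjusted p of 0.15 for Ass1, 0.063 for Arg1 and 0.12 for Asl, while the log2 values stayed above 0. Over the 23 other settings all of these 3 kept log2 values above 0, and Ass1 was called in 11, Arg1 in 10 and Asl in 10.

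**Figure D3:**
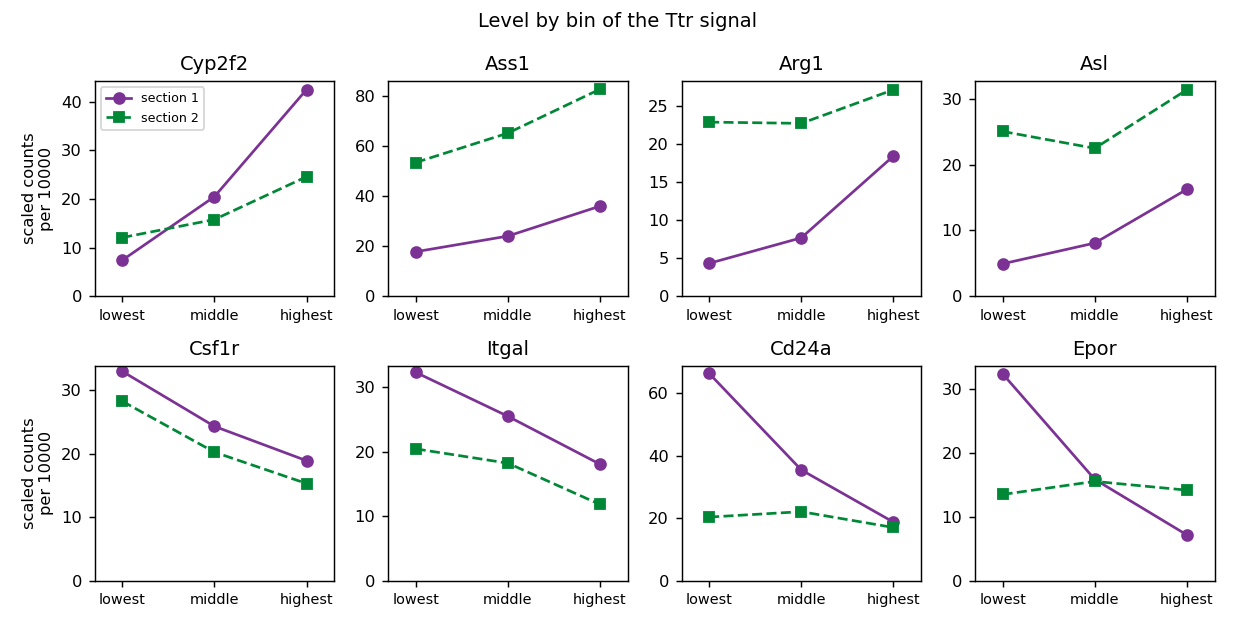
TMM-scaled counts per 10000 (axes from 0) in the lowest, middle and highest bin of the Ttr signal for 8 genes, with section 1 as purple circles and section 2 as green squares. Cyp2f2 rose from 7.39 to 42.5 in section 1 and from 12.1 to 24.6 in section 2, while Epor stood at 32.4 and 7.19 in the lowest and highest bin of section 1 and at 13.5 and 14.2 in section 2.

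Other hepatocyte and epithelial genes were called higher as well. Cldn1, a tight-junction claudin, had a log2 change of 0.84 (SE 0.26, adjusted p = 0.040), with a ratio of 2.51 in section 1 and 1.23 in section 2. Egfr, the epidermal growth factor receptor, had 1.04, Cpn1, a plasma carboxypeptidase subunit, 0.76, the complement gene C2 0.90 and Sdc1, the proteoglycan syndecan-1, 0.70. Ratios for Cpn1 were 1.71 and 1.68 and for Sdc1 1.70 and 1.56 in section 1 and 2 on the TMM scale. By totals they were 1.16 and 1.69 for Cpn1 and 1.15 and 1.57 for Sdc1. Gstm2, a glutathione transferase, had a log2 change of 1.19, carried by section 1 with a ratio of 5.61 against 1.20.

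By list, 5 of 10 tested periportal genes were higher and 0 lower, with a median log2 change of 0.83 against -0.06 over all tested genes. They were Cyp2f2, Ass1, Arg1, Asl and Sox9, the last a biliary and periportal transcription factor whose counts did not exceed the highest blank barcode in either section. By totals 1 of the 10 periportal genes was called higher, Cyp2f2, and the calls of Sox9, Gstm2 and Cldn1 were lost along with those of the urea-cycle genes (adjusted p = 0.12, 0.062 and 0.21). On the TMM scale, of 6 urea-cycle and amino acid genes 3 were higher and 0 lower, with a median of 0.83. Of 16 pericentral genes 1 was higher, Gstm2, and 0 lower, with a median of 0.05. Glul, glutamine synthetase of the cells around the central vein, had a log2 change of 0.19 (adjusted p = 0.64), with ratios of 1.70 in section 1 and 0.766 in section 2. Cyp2e1, a pericentral cytochrome P450, had -0.31 (adjusted p = 0.37), with ratios of 0.951 and 0.683. None of 5 hepatocyte transcription factors passed the test, and Hnf4a, the master factor of hepatocyte identity, had 0.44 (adjusted p = 0.20), while Cebpa had 0.54 (adjusted p = 0.12). Of 8 plasma protein genes 0 were called, with Fn1, fibronectin, at 0.97 (adjusted p = 0.070) and Hp, haptoglobin, at 0.63 (adjusted p = 0.34). Also without a call were the 3 gluconeogenesis genes, among them Pck1 at 0.37, the 4 bile acid genes, the 8 lipid genes, the 10 Wnt pathway genes and the 7 cell-cycle genes, with medians of 0.32, 0.41, 0.37, -0.19 and -0.61.

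Among genes of other cell types, Csf1r stood at 33.0, 24.3 and 18.9 per 10000 in section 1 and 28.3, 20.3 and 15.3 in section 2, a fall at each step in both. Its log2 change was -0.84 (SE 0.24, adjusted p = 0.028). Itgal stood at 32.3, 25.5 and 18.0 in section 1 and 20.4, 18.2 and 11.8 in section 2, with a log2 change of -0.82 (SE 0.24, adjusted p = 0.033). Cd24a stood at 66.4, 35.5 and 18.8 in section 1 and 20.4, 22.1 and 17.1 in section 2, with a log2 change of -1.12 (SE 0.30, adjusted p = 0.025). Epor, the erythropoietin receptor, had a ratio of 0.222 (0.166 to 0.292) in section 1 and 1.05 (0.742 to 1.498) in section 2. Its call, at -1.13 (SE 0.37, adjusted p = 0.044), thus rests on section 1 and turned to 0.07 without it. Klf1, another gene of the erythroid list, had a log2 value above 0 in section 1 and -0.31 in section 2. Of the 7 erythroid genes tested 4 were lower in both sections and 0 higher in both. With the signal not divided by volume Cd24a turned to 0.29, Epor to 0.039 and Ighm to 0.33, and Csf1r and Itgal lost their calls at -0.22 and -0.017. Within strata of cell volume 0 genes passed in edgeR (for 80 the unadjusted p lay under 0.05), and Cd24a stood at -0.51 (adjusted p = 0.52). Within strata of the GFP channel it stood at -0.41 (adjusted p = 0.34), and Csf1r at -0.60 (adjusted p = 0.11). Ighm, the immunoglobulin mu chain of B lineage cells, had -1.06, and Col3a1, a fibrillar collagen, -1.13. Cdh5 and Lyve1, of endothelial cells, had -0.85 and -1.31, and Emilin2, an extracellular matrix glycoprotein gene, had -1.20. Adpgk, an ADP-dependent glucokinase of the glycolysis list, fell by 1.76 on the log2 scale (SE 0.32, adjusted p = 0.0016), from 21.2 to 4.67 per 10000 in section 1 and from 7.13 to 3.35 in section 2.

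By list, 4 of 9 endothelial genes were lower, 3 of 10 of monocytes and neutrophils, 2 of 7 erythroid, 1 of 6 macrophage, 1 of 5 mesenchymal and 1 of 6 B lineage genes, with 0 higher in these 6 lists. Over all tested genes 7.05% were lower, a share that 1 of 5 or 1 of 6 genes does not set apart from the rest. The median log2 changes of the lists were -0.81, -0.81, -0.77, -0.83, -0.61 and -0.97. In the same order, 3, 3, 1, 2, 2 and 5 of their tested genes did not exceed the highest blank barcode in either section. The other 3 marker lists held higher calls: 2 of 3 megakaryocyte genes were higher and 1 lower, 1 of 5 T and NK genes was higher and 0 lower, and 1 of 3 cholangiocyte genes was higher and 0 lower, with medians of 1.28, 0.39 and 1.41. Higher calls made up 8.67% of all tested genes, so 1 of 5 or 1 of 3 is not set apart. Of these genes 1 of 3 megakaryocyte, 4 of 5 T and NK and 2 of 3 cholangiocyte did not exceed the highest blank barcode in either section. By totals 0 megakaryocyte, 1 T and NK and 0 cholangiocyte genes were higher. Summed over the list and divided by totals, erythroid markers stood at 404 per 10000 in the lowest and 139 in the highest bin of section 1, and at 70.1 and 71.1 in section 2. For endothelial markers these were 140 and 49.8, and 42.8 and 30.9. For macrophage markers they were 98.9 and 36.6, and 37.5 and 23.4. T and NK markers ran the other way in section 1, at 14.8 and 36.4, and stood at 9.10 and 8.48 in section 2. Each marker of these lists on the panel had counts in both sections. In section 1, 3317 of 4980 hepatocyte-rule cells had under 3 counts of every other marker list, and their median signal was 674 against 550 for all. In section 2 these were 8479 of 8814, with a median of 177 for both. Bins were also cut among cells with 0 counts of the erythroid, macrophage, monocyte and neutrophil, endothelial, mesenchymal and B lineage lists. The T and NK, megakaryocyte and cholangiocyte lists were not part of this filter. In these cells 172 genes could be tested, and edgeR called 0 of them, 13 having an unadjusted p under 0.05. Cyp2f2 had a log2 change of 1.29 there (adjusted p = 0.59).

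**Figure D4:**
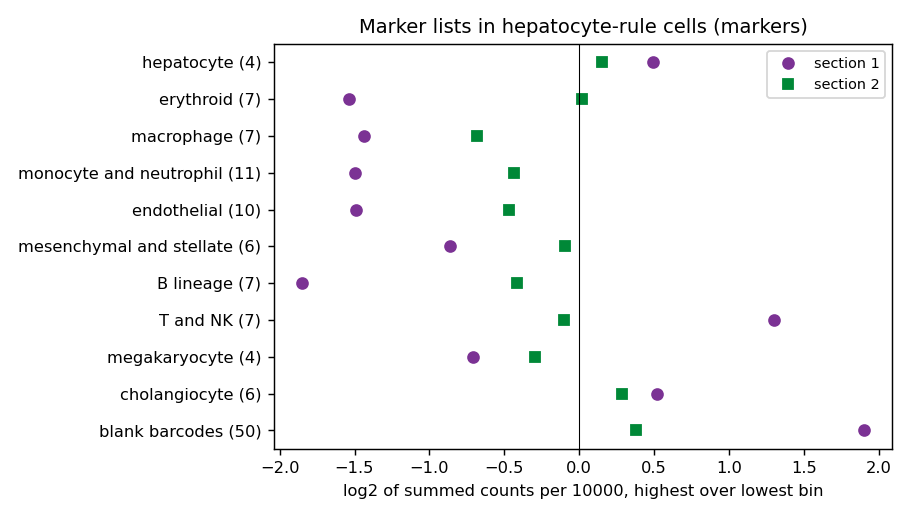
Log2 of the summed counts per 10000 (by library totals) of each marker list in the highest over the lowest bin, for section 1 (purple circles) and section 2 (green squares), with the number of markers in brackets. Erythroid markers had a ratio of 0.345 in section 1 and 1.01 in section 2, hepatocyte markers outside the rule 1.41 and 1.11, and blank barcodes 3.74 and 1.30.

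Higher and lower calls alike included genes near the level of the blank barcodes. The highest blank barcode had 150 of 1546 blank counts in section 1 and 147 of 434 in section 2, where the mean per blank was 8.68, so this bound rests on 1 barcode. In all, 113 of the 369 tested genes exceeded it in both. Of these 113, 10 were higher and 8 lower. Of 99 genes above it in 1 section 11 were higher and 17 lower, and of 157 above it in neither 11 were higher and 1 lower. Over all 369 tested genes 8.67% were higher and 7.05% lower. The increases above that of Cyp2f2 all belonged to genes not above it in 1 or both sections. Ace, which encodes angiotensin-converting enzyme, had 20, 61 and 101 counts in section 1 and 2, 6 and 14 in section 2, with a log2 change of 3.16 (adjusted p = 0.00038). Fgf23, a hormone gene of bone, had 32, 85 and 129 counts in section 1 and 6, 8 and 26 in section 2, with 2.66 (adjusted p = 0.00063). Rgs1, Mcpt8, St8sia4 and Rnf138 had 3.37, 2.75, 2.72 and 2.90. Blank barcodes themselves had 5.52 times the scaled level in the highest bin of section 1 and 1.29 times in section 2. In cells with 0 blank counts edgeR called 8 genes, and Cyp2f2 was among them at 1.71 (adjusted p = 0.042). The calls of Ass1, Arg1 and Asl were lost there (adjusted p = 0.081, 0.11 and 0.092). Those of Cd24a, Csf1r and Itgal were lost as well (adjusted p = 0.093, 0.080 and 0.074). The log2 values of these genes kept their direction.

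**Figure D5:**
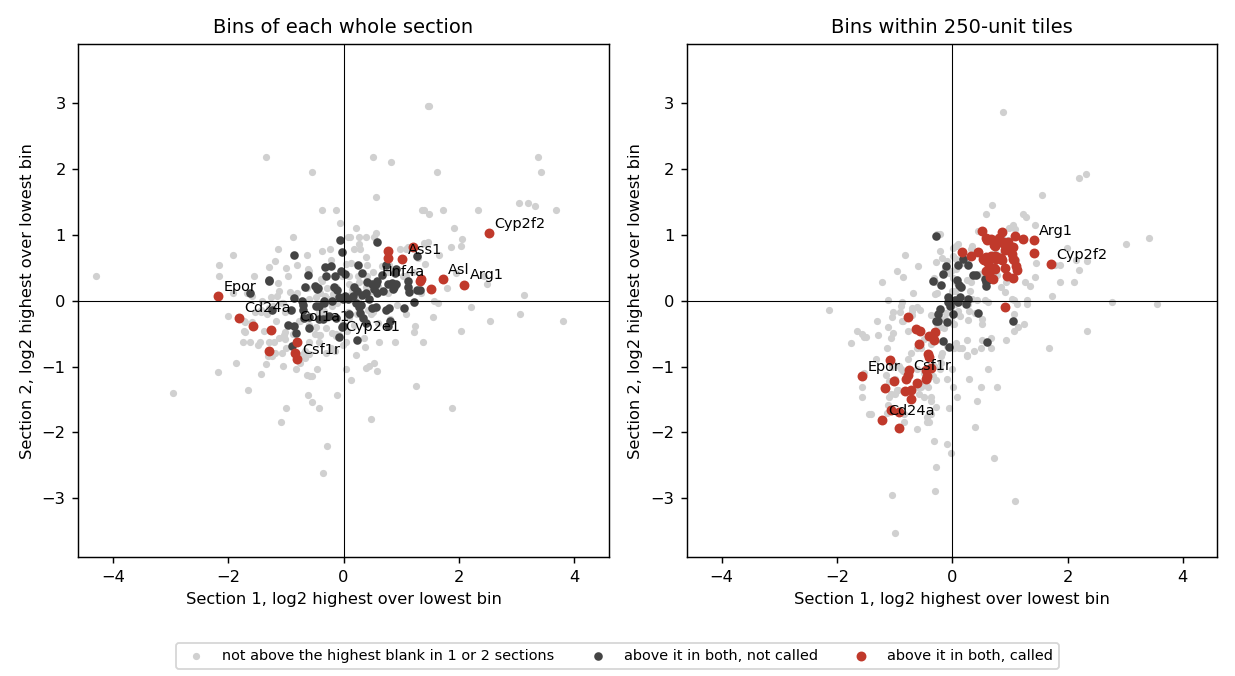
Log2 of the TMM-scaled level in the highest over the lowest bin, section 1 on the x axis and section 2 on the y axis, 1 point per tested gene with counts in all 4 sums. Left, bins of each whole section; right, bins cut within 250-unit tiles. Red points were called and exceed the highest blank barcode in both sections, dark points exceed it without a call, and light points do not exceed it in 1 or 2 sections; the red points number 18 on the left and 76 on the right.

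The place in the lobule was estimated for each cell from its neighbours, as the log2 ratio of Glul, Cyp2e1 and Gulo to Pck1, Ass1 and Hsd17b13 counts in hepatocyte-rule cells within 50 units. This score is not independent of the stain comparison, since it holds Ass1, a gene called higher with the stain, and neighbouring cells shared the stain. It could be given to 829, 1345 and 1306 cells of the lowest, middle and highest bin in section 1 and to 1992, 2535 and 2725 in section 2. The values are therefore a description. The median signal was 680, 601 and 589 from the periportal to the pericentral bin of positions in section 1, and 186, 184 and 175 in section 2. The highest stain bin held 42.6%, 37.2% and 32.8% of these cells in section 1 and 42.9%, 41.2% and 28.7% in section 2. The rank correlation with the position score was weak, at -0.075 and -0.159. With bins cut inside 3 strata of position, 26 genes were called, and Cyp2f2 was higher at 1.38 (adjusted p = 0.020). The other periportal calls were lost there, leaving 1 of 10, with Ass1 at 0.75, Arg1 at 0.96 and Asl at 0.996 (adjusted p = 0.062, 0.062 and 0.056).

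Because the stain was patchy, the bins were also cut within each tile, so that strong and weak cells were neighbours. On the TMM scale 8 of 10 periportal genes, 7 of 16 pericentral genes, 4 of 5 hepatocyte transcription factors and 4 of 4 junction genes were then higher in the strongly stained cells, and most tested genes of the erythroid, myeloid and endothelial lists were lower. By library totals the higher counts were 4, 2, 1 and 1, with 1 pericentral gene lower. The fit called 149 of 361 genes (41.3%), 79 higher (21.9%) and 70 lower (19.4%), with a median log2 change of 0.06, and 51 of them were also called over whole sections. Of the 149, 143 ran the same way in both sections, again counted in the sums that gave the calls. Among the 113 genes above the highest blank in both sections 48 were higher and 28 lower. The genes named here for this comparison were chosen after their values were seen.

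Of 5 hepatocyte transcription factors 4 were higher within tiles and 0 lower. Hnf4a stood at 31.2, 42.4 and 54.5 per 10000 in section 1 and 35.9, 52.9 and 69.4 in section 2, rising at each step, with a log2 change of 0.87 (SE 0.13, adjusted p = 2.6e-06). Cebpa, another factor of hepatocyte differentiation, stood at 22.0, 28.3 and 34.8 and at 47.2, 59.2 and 75.6, with 0.67 (SE 0.13, adjusted p = 7.5e-05). Of 8 plasma protein genes 6 were higher and 0 lower, with a median of 0.82. Ambp, the precursor of alpha-1-microglobulin, had 0.85, Hp 0.85, Apob, the protein of very-low-density lipoprotein, 0.62 and Fn1 1.08.

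At the periportal end 8 of 10 genes were higher and 0 lower within tiles, with a median of 0.73. Cyp2f2 stood at 10.9, 20.3 and 35.7 in section 1 and at 14.4, 20.9 and 21.2 in section 2, with a log2 change of 1.24 (SE 0.19, adjusted p = 3.8e-06). Arg1 had 1.15, Asl 1.03, Ass1 0.87 and Pck1, which commits carbon to glucose synthesis, 0.58. At the pericentral end 7 of 16 were higher and 0 lower, with a median of 0.68. Cyp2e1 stood at 25.3, 33.4 and 38.3 in section 1 and 31.6, 45.1 and 59.9 in section 2, with 0.75 (SE 0.14, adjusted p = 3.0e-05), where over whole sections it had -0.31 without a call. Gulo, the last enzyme of vitamin C synthesis, had 0.86 and Glul 0.51. All 4 junction genes tested were higher, among them Cldn1 at 1.10 and Gjb1, the main gap-junction protein of hepatocytes, at 0.63. Of 4 bile acid genes 3 were higher, with Cyp8b1, the sterol 12-alpha-hydroxylase, at 0.94.

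Among the genes of other cell types the lower calls within tiles lay mainly in the erythroid, myeloid and endothelial lists. Of 7 erythroid genes 6 were lower, of 9 monocyte and neutrophil genes 8, of 6 macrophage genes 4 and of 9 endothelial genes 6, with 0 higher in these lists. Their medians were -1.04, -1.04, -1.02 and -0.60. Over all genes tested within tiles 19.4% were lower and 21.9% higher. Of 5 mesenchymal genes 2 were lower and 1 higher, of 6 B lineage genes 1 was lower and of 3 megakaryocyte genes 1 was lower. Higher were 1 of 5 T and NK genes and 1 of 2 cholangiocyte genes. So few calls in these last lists are not set apart from the shares over all genes. Cd24a stood at 62.3, 41.6 and 26.9 in section 1 and at 30.3, 18.1 and 8.6 in section 2, with a log2 change of -1.41 (SE 0.15, adjusted p = 3.5e-08). Epor, whose sections differed in direction over whole sections, had 30.9, 19.96 and 10.5 in section 1 and 20.1, 12.4 and 9.1 in section 2 within tiles. Col1a1, a fibrillar collagen, had -1.28 and the proliferation gene Mki67, which stands on the erythroid list, -0.84. Cxcl12, a chemokine of stromal cells, was higher at 0.56.

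These values too depend on the scale. TMM raised the log2 values within tiles by 0.62 in section 1 and 0.40 in section 2 relative to totals. By totals 27 genes were higher (7.48%) and 126 lower (34.9%), with a median of -0.47. Cyp2f2 at 0.71, Arg1 at 0.64, Cldn1 at 0.58, Fn1 at 0.57, Asl at 0.53, Cyp8b1 at 0.42, Ass1 at 0.37, Hnf4a at 0.35, Gulo at 0.34 and Ambp at 0.33 were still called higher by totals. Cebpa at 0.16, Cyp2e1 at 0.23, Apob at 0.10, Pck1 at 0.06 and Glul at -0.0037 were not. By totals the lower genes numbered 6 erythroid, 8 monocyte and neutrophil, 6 macrophage and 6 endothelial.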

How the data were processed

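Raw MERFISH counts per segmented cell and gene, blank barcode counts, and image signal summed per cell were used as deposited by the authors, per the file headers. Per the labels' protocols, frozen liver was sectioned, fixed and mounted on Vizgen slides. The sources used here name no decoding or segmentation software and no length unit for cell volume and position. The deposited per-molecule table was not used. The Ttr signal was divided by deposited cell volume. Counts were summed by section and bin, giving 6 sums and 2 residual degrees of freedom, and tested with edgeR 4.0.16 (R 4.3.3), which was checked on simulated counts. Ratios within a section used SciPy 1.17.1. No doublet caller was run. The cell rule, gene lists and tests were chosen with earlier results of these data known. Named over whole sections were the 15 called genes with the largest and the 15 with the smallest log2 change among those of the same direction in both sections, up to 4 called members a list by p, up to 3 markers per other cell type by counts, and 8 hepatocyte genes; Cpn1, Egfr, C2, Sdc1 and other genes outside this rule were chosen after their values were seen. The panel holds no probe for Ttr, and no genome coordinates or sequences are given. Alternatives changed scaling, test, filters, bins, the signal and where the 3 bins were cut. Some genes of the lists are counted but not reported by name here.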

Additional observations from a re-analysis of the deposited data

How the results depend on the processing

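Against 58 calls over whole sections, the count of calls was 62 by library totals, 76 and 73 with a minimum of 10 and 1 counts per gene, 82 with 5 bins, 40 with at least 20 counts per cell, 40 with a marker sum of at least 10 and 77 within strata of total counts, all within 1.5 times. It was higher with the high-pass signal (150), within strata of the DNA stain (90), within tiles (149) and within tiles by totals (153). It was lower with volume as the offset (7), DESeq2 1.42.0 (10), 2 bins (16), the signal not divided by volume (2), cells with 0 blank counts (8), cells thinned to 10 counts (11), strata of the GFP channel (8) and strata of position (26). Only genes above the highest blank gave 18 calls of 113 tested genes, all 18 also among the 58 of 369. No replicate block gave 0 calls in edgeR, with 16 genes at an unadjusted p under 0.05, against 58 with section as the block. Strata of cell volume gave 0 and 80, and cells with 0 counts of erythroid, myeloid, endothelial, mesenchymal and B lineage markers 0 and 13 of 172 tested. The cause was not tested. Leaving out a section leaves no residual degrees of freedom, so it gives values and no count. Cells with 0 blanks, genes above the blank and tiles by totals were settings chosen after seeing the data.

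Leaving out a section in turn, 8 of 64 named genes reversed, all without section 1: their log2 values ranged from -2.17 to 0.070 for Epor, -0.38 to 0.77 for Glul, -0.21 to 3.06 for Gzma, -0.13 to 1.38 for Gzmb, -0.31 to 0.80 for Klf1, -1.58 to 0.077 for Mrc1, -0.28 to 0.80 for Nkg7 and -0.30 to 2.54 for Spp1. By totals the reversed values were Glul -0.085 and Klf1 -0.0060. With the volume offset the reversed value was Cyp2e1 0.00093. With the undivided signal the reversed values were Apobec3 0.00044, Cd24a 0.29, Clec4f 0.15, Col1a1 0.61, Epor 0.039, Hnf4a -0.0081, Ighm 0.33, Itgam 0.0084, Mki67 0.36, Ncf1 0.12, Pck1 -0.26 and Thbs1 0.25. With the high-pass signal the reversed value was Cyp2e1 0.17. Among cells with 0 counts of erythroid, myeloid, endothelial, mesenchymal and B lineage markers the reversed values were Glul -0.015, Hnf4a -0.22 and Pck1 -0.15. Within DNA strata the reversed value was Cyp2e1 0.079. Within GFP strata the reversed value was Glul -0.17. Within tiles the reversed value was Cyp2e1 0.75. Within position strata the reversed value was Cyp2e1 0.044. Within tiles by totals the reversed values were Cyp2e1 0.23, Glul -0.0037, Klf1 -0.37, Nkg7 -0.35 and Sox9 -0.068. Gzmb, with few counts, reversed under 11 settings, at 0.00011, 0.20, 1.13, 0.17, 0.072, 0.59, 0.045, 0.48, 0.43, 0.54 and 0.39. In section 2, 127 genes exceed the highest blank barcode, against 211 in section 1.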
